A study of Mus musculus with 8 samples.

Results

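The death receptor pathway described here comprises 9 genes of the FAS and TRAIL system in RNA sequencing of natural killer (NK) cells. The genes were chosen by symbol from the known pathway, all 9 were found among the 45706 genes listed, and all 9 were among the 14006 genes with enough counts to be tested. They encode the death ligands Fasl and Tnfsf10, the receptors Fas, Tnfrsf10b and Tnfrsf1a, and the signalling proteins Fadd, Casp8, Cflar and Ripk1.

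Titles divide the sorted cells into 4 tuNK libraries, from the tumour infiltrate, and 4 spNK libraries, from spleen. They came from BALB/c mice inoculated under the skin with CT26_β2m-/- cells, a mouse colorectal carcinoma line that lacks β2-microglobulin and therefore surface MHC class I. Both groups went through the same enzyme digestion and sort, while the density gradient is described for tumour only. The sources used here do not give age, sex, sort markers or time after inoculation. In all 8 samples the tissue tag names the other tissue than the title, and the titles were followed. Whether the 4 libraries of a group came from separate mice is not stated, so a p-value reflects the spread of these libraries alone, which may be technical.

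FASL and TRAIL (the product of Tnfsf10) are ligands on the surface of cytotoxic lymphocytes. They cluster FAS or the TRAIL receptor on a target cell, and the adaptor FADD then recruits the initiator caspase CASP8, which starts the caspase cascade. The CASP8 homologue cFLIP, encoded by Cflar, lacks protease activity and limits that step, whereas RIPK1 links the TNF receptor TNFR1 (Tnfrsf1a) to survival signalling, apoptosis or necroptosis. NK cells use both ligands against tumour cells, and as lymphocytes they can themselves carry FAS.

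Library totals ran from 38745700 to 45404100 estimated counts in tuNK and from 40560800 to 53886900 in spNK (to 6 significant digits). All 10 NK cell markers listed were detected in both groups and were lower in tuNK, with Ncr1, which encodes the NK receptor NKp46, at 312 CPM in tuNK and 1469 CPM in spNK (CPM, counts scaled to library size, here after TMM scaling). The summed CPM, without TMM factors, of 32 genes expressed across leukocytes ran from 4994 to 6761 in tuNK and from 19293 to 24336 in spNK. All 15 markers of fibroblasts and mesenchymal tumour cells were higher in tuNK. They summed to 3036 to 5003 CPM in tuNK and 103 to 172 CPM in spNK, where Col6a1, Lum and Pdgfra were at 0. Thy1 made up most of the spNK sums, with a mean of 101 CPM, and the next highest spNK mean was that of Fn1, at 8.99 CPM. Of the 9 epithelial markers 4 were higher in tuNK, with sums of 47.3 to 63.5 CPM in tuNK and 1.28 to 10.8 CPM in spNK. The 11 macrophage and monocyte markers summed to 121 to 137 CPM in tuNK and 311 to 533 CPM in spNK, with 2 higher in tuNK (Cd14, at 60.4 CPM in tuNK and 0.28 CPM in spNK, and Mrc1), 3 lower and 4 not called. The sums were mostly Cd14 and Ly6c2 in tuNK and Ly6c2 and Lyz2 in spNK. The 7 B cell markers summed to 0.772 to 2.04 CPM in tuNK and 17.9 to 40.8 CPM in spNK. T cell markers summed to 12.7 to 20.4 CPM in tuNK (mostly Cd3g) and 46.8 to 56.4 CPM in spNK. Neutrophil markers summed to 20.3 to 37.2 CPM in tuNK (mostly Mmp9) and 8.19 to 44.5 CPM in spNK (mostly S100a8 and S100a9). Platelet markers summed to 45.1 to 110.2 CPM in tuNK and 380 to 669 CPM in spNK. The tuNK platelet sums were mostly Itgb3, at 71.0 CPM in tuNK and 94.7 CPM in spNK and not called. Pf4 was at 0.0191 CPM in tuNK and 96.0 CPM in spNK. Erythroid markers summed to 0.361 to 1.78 CPM in tuNK and 166 to 781 CPM in spNK. In such bulk samples, fewer cells of a type and less RNA per cell cannot be told apart.

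Because the leukocyte genes were lower in tuNK, changes of the 9 genes and of the other pathway genes named are given on both of the following scales, and those of marker lists by TMM unless stated. TMM scaling assumes that most genes of the 14006 tested do not differ. Scaling to the 32 leukocyte-wide genes (leukocyte-scaled) sets the median of those genes equal in all libraries, and it moved the log2 fold change of the median gene by 1.70. All fold changes are tuNK minus spNK on the log2 scale with their standard error, and adjusted p-values come from edgeR's quasi-likelihood test, corrected by Benjamini-Hochberg over all genes tested.

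Relative to all RNA, 6 of the 9 genes fell in tuNK, 2 rose and Fas did not pass the test, whereas leukocyte-scaled 8 were higher and 0 lower. At the same threshold of 0.05, 69.6% of all genes tested were called (34.0% lower and 35.6% higher), and leukocyte-scaled 84.8% (6.25% lower and 78.5% higher). The median log2 fold change of the 9 genes was -0.46, against 0.02 over all genes tested, and leukocyte-scaled it was 1.25, against 1.72. The CPM of the groups did not overlap for 7 of the 9 genes, 5 with tuNK below and 2 with tuNK above, while over all genes tested the groups did not overlap in 67.1% (32.7% with tuNK below and 34.4% above).

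**Figure D1:**
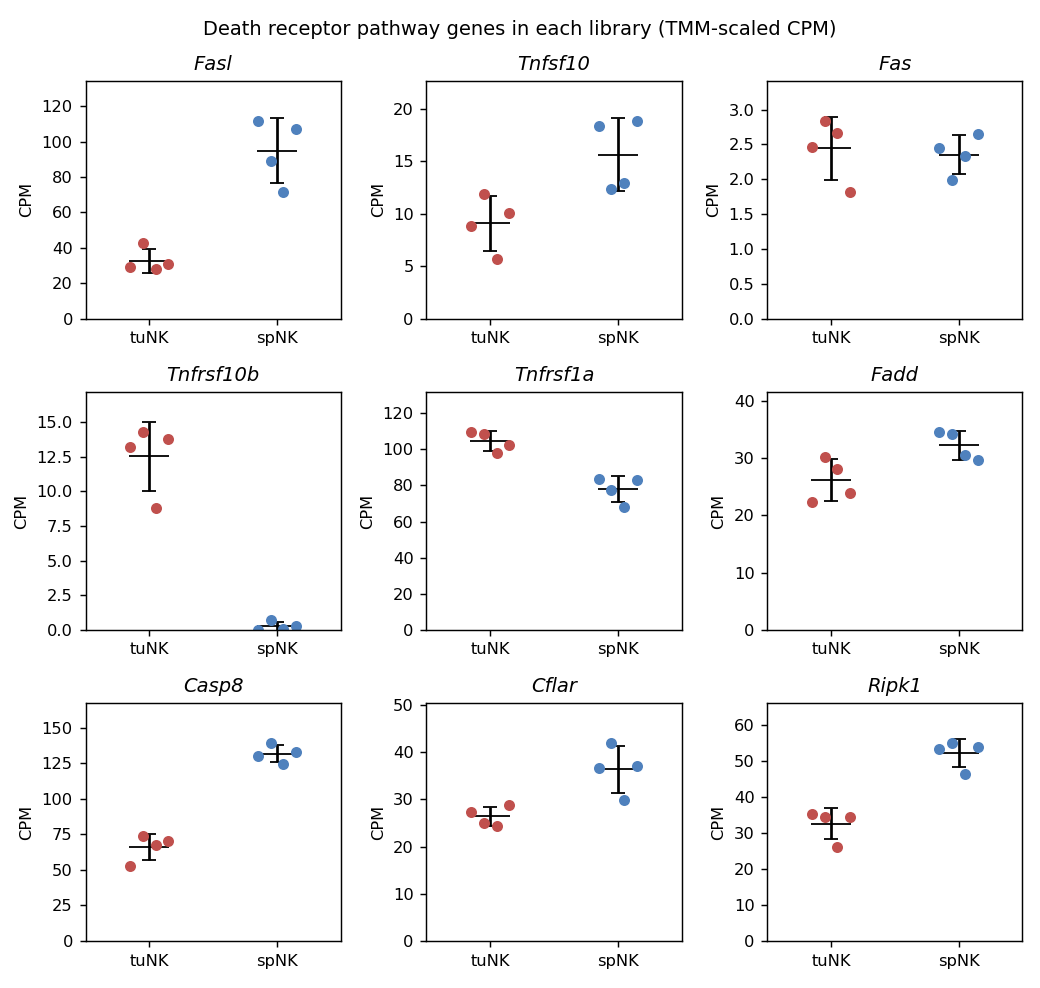
TMM-scaled CPM (vertical axes, from 0, each with its own range) of the 9 death receptor pathway genes in the 4 tuNK and the 4 spNK libraries. Points are libraries in replicate order, horizontal lines are means and bars are SD. Fasl and Casp8 lie far below their spNK values in every tuNK library and Tnfrsf10b far above, whereas the groups overlap for Fas and Fadd. With leukocyte scaling the falls of 6 genes are lost, and Casp8 is higher by 0.70 on the log2 scale.

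Of the 9 genes, 8 have a promoter sequence in RefSeq on GRCm38.p6, as windows of 300 bases that run from 250 bases before the start site to 50 after it. The promoters of Fasl and Tnfsf10, the ligands that fell, and of Fas and Tnfrsf1a, a receptor that did not pass the test and one that rose, are shown so that the differing ligands and receptors can be set side by side. Capitals mark matches on either strand to any of 7 motifs. The GC box was searched as GGGCGG, the TATA box as TATAAA and the ETS motif as CCGGAAG. The NFAT motif was searched as GGAAAA and the T-box motif as TCACACC, beside the AP-1 motif and the interferon response element.
Fasl, chr1:161788446-161788745, minus strand: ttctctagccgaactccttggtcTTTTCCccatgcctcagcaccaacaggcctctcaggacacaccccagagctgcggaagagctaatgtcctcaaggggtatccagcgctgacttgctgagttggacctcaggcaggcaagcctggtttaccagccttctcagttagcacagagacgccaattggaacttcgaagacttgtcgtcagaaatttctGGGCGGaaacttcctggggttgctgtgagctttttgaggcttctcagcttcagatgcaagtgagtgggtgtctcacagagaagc
Tnfsf10, chr3:27316827-27317126, plus strand: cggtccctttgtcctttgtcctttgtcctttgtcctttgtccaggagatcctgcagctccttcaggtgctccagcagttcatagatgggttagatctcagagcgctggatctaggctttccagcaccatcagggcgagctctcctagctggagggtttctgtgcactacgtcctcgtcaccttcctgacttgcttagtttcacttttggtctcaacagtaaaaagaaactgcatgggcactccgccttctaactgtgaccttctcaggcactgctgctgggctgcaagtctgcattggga
Fas, chr19:34290409-34290708, plus strand: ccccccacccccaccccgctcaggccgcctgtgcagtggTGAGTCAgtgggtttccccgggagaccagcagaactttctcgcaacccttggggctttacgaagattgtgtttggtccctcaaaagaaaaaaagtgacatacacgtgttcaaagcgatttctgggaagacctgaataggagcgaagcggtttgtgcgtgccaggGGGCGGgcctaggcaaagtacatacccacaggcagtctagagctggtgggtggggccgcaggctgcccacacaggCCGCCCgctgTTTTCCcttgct
Tnfrsf1a, chr6:125349473-125349772, plus strand: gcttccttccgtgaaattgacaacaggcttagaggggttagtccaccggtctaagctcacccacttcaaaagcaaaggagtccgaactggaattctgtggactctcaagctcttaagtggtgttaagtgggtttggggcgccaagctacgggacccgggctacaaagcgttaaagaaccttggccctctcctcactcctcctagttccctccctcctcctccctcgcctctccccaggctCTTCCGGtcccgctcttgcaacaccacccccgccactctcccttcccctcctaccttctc
The Fasl window held 1 GC box and 1 NFAT match, the Tnfsf10 window none of the motifs, the Fas window 2 GC boxes, 1 AP-1 and 1 NFAT match, and the Tnfrsf1a window 1 ETS match. Of all 32851 promoter windows, 35.7% hold the GC box, 23.4% the NFAT letters, 8.86% the ETS letters, 7.81% the AP-1 letters, 13.6% the TATA box, 3.44% the interferon response element and 3.98% the T-box letters. None of the marked matches overlapped another in these 4 windows. A match describes the letters only.

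The ligands fell in tuNK relative to all RNA, FASL more than TRAIL, while relative to leukocyte genes neither was lower. Fasl (ENSMUSG00000000817, GRCm38 chromosome 1, 161780689 to 161788495, minus strand) encodes the ligand of FAS. It had 29.1, 42.6, 27.9 and 30.8 CPM in tuNK 1 to 4, against 112, 88.9, 71.7 and 107 CPM in spNK 1 to 4. Every tuNK library lay below every spNK library, and the lowest spNK value was still well above the highest tuNK value. The mean was 32.6 ± 6.78 CPM in tuNK and 94.8 ± 18.3 CPM in spNK (SD, n = 4 each), a 2.91-fold fall (log2 fold change -1.54 ± 0.17, adjusted p = 1.83e-05). Leukocyte-scaled the change was 0.16 ± 0.15 (95% interval -0.18 to 0.49, adjusted p = 0.348), which did not pass the test. The 10 NK markers had a leukocyte-scaled median of -0.51, with 6 lower, 1 higher and values from -2.0 for Itga2 to 0.34 for Prf1, which encodes perforin.

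Tnfsf10 (ENSMUSG00000039304, chromosome 3, 27317028 to 27342427, plus strand) encodes TRAIL. It had 8.80, 11.9, 5.64 and 10.1 CPM in tuNK 1 to 4, against 18.4, 12.4, 12.9 and 18.9 CPM in spNK 1 to 4. The groups did not overlap, but tuNK 2 and spNK 2 were close to each other. The mean was 9.10 ± 2.63 CPM in tuNK and 15.6 ± 3.48 CPM in spNK (SD, n = 4 each), a 1.72-fold fall (log2 fold change -0.78 ± 0.24, adjusted p = 0.0138). Leukocyte-scaled it was higher, by 0.89 ± 0.22 (adjusted p = 0.00248). Fasl and Tnfsf10 therefore moved by different amounts. Their ratio was taken on TPM (a transcript level corrected for length and library size), with a pseudocount of 0.1 TPM added to each gene. The other TPM ratios given here were formed in the same way unless stated. The ratio of Fasl to Tnfsf10 was 8.77, 9.55, 12.6 and 6.97 in tuNK 1 to 4, against 16.5, 17.9, 14.9 and 15.4 in spNK 1 to 4. That ratio was 1.74-fold lower in tuNK with no overlap (two-sided exact permutation p = 0.0286, adjusted p = 0.0347 over 17 ratios). Its size varied with the pseudocount, with a log2 difference of -0.765 without it, -0.800 with 0.1 TPM and -0.996 with 1 TPM. The smallest p that 4 against 4 libraries allow is 0.0286. All 14 ratios that passed had this p, so their adjusted p depends on how many ratios reached it. Most of those 14 were ratios to the summed leukocyte-wide genes.

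Among the receptors, the TRAIL receptor was higher in tuNK, with few or no reads in spNK, the TNF receptor was modestly higher, and FAS was low in both groups. Tnfrsf10b (ENSMUSG00000022074, chromosome 14, 69767472 to 69784411, plus strand) encodes the only death-inducing TRAIL receptor of mice. It had 510, 614, 346 and 540 estimated counts in tuNK 1 to 4, against 0, 38, 3 and 12 in spNK 1 to 4. In CPM these were 13.2, 14.3, 8.79 and 13.8 in tuNK, against 0, 0.675, 0.0613 and 0.272 in spNK, so that every tuNK library lay above every spNK library and spNK 2 held most of the spNK reads. The log2 fold change was 5.56 ± 0.78 (adjusted p = 1.54e-04), and leukocyte-scaled it was 7.27 ± 0.75 (adjusted p = 7.17e-06). Without spNK 2 it was 6.78 (adjusted p = 2.3e-05), so its size rests on a few reads in spNK. It stood beside the 15 mesenchymal markers, which were at 5003, 3175, 3036 and 3407 CPM in tuNK 1 to 4, and the part of those cells in the rise was not tested.

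Tnfrsf1a (ENSMUSG00000030341, chromosome 6, 125349362 to 125362484, plus strand) encodes TNFR1, a receptor of most nucleated cells. It had 110, 109, 97.9 and 103 CPM in tuNK 1 to 4, against 83.8, 77.3, 68.0 and 82.8 CPM in spNK 1 to 4. The groups did not overlap and both varied little. The mean was 105 ± 5.53 CPM in tuNK and 78.0 ± 7.21 CPM in spNK (SD, n = 4 each), a 1.34-fold rise (log2 fold change 0.43 ± 0.09, adjusted p = 0.00132; leukocyte-scaled 2.13 ± 0.14). On the TPM scale the rise did not pass the test, with a log2 difference of 0.16 and an adjusted p of 0.283 to 0.361 by limma, and by TPM the median gene stood 0.23 to 0.24 lower than by TMM-scaled counts. Called higher on log2 TPM plus 1 were 28.4% of genes, on log2 TPM plus 0.1 28.7%, and on log2 TPM plus 1 over all genes above 0 19.0%. The mesenchymal markers given for Tnfrsf10b were also higher in tuNK, and their part in the change of Tnfrsf1a was not tested.

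Fas (ENSMUSG00000024778, chromosome 19, 34290666 to 34327772, plus strand) encodes the receptor of FASL. It had 95, 122, 105 and 71 estimated counts in tuNK 1 to 4, against 105, 112, 114 and 117 in spNK 1 to 4, and 2.46, 2.84, 2.67 and 1.81 CPM in tuNK, against 2.44, 1.99, 2.33 and 2.65 CPM in spNK. The groups overlapped throughout their range. The log2 fold change of 0.06 ± 0.30 did not pass the test (95% interval -0.60 to 0.72, adjusted p = 0.876), and the interval includes changes of the size seen for Tnfrsf1a and Cflar. Leukocyte-scaled, Fas was higher by 1.76 ± 0.35 (adjusted p = 4.66e-04). Within libraries Fasl was 8.38, 10.3, 7.39 and 14.1 times Fas by TPM in tuNK 1 to 4, against 32.3, 31.3, 21.7 and 28.6 times in spNK 1 to 4, a 2.89-fold lower ratio with no overlap (exact permutation p = 0.0286, adjusted p = 0.0347). The mesenchymal markers were higher in the same tuNK libraries, and the part of that RNA in the ratio of Fasl to Fas was not tested. The ratio of Fas to Tnfrsf1a differed by -0.34 on the log2 scale with overlapping groups (exact permutation p = 0.114, adjusted p = 0.121).

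**Figure D2:**
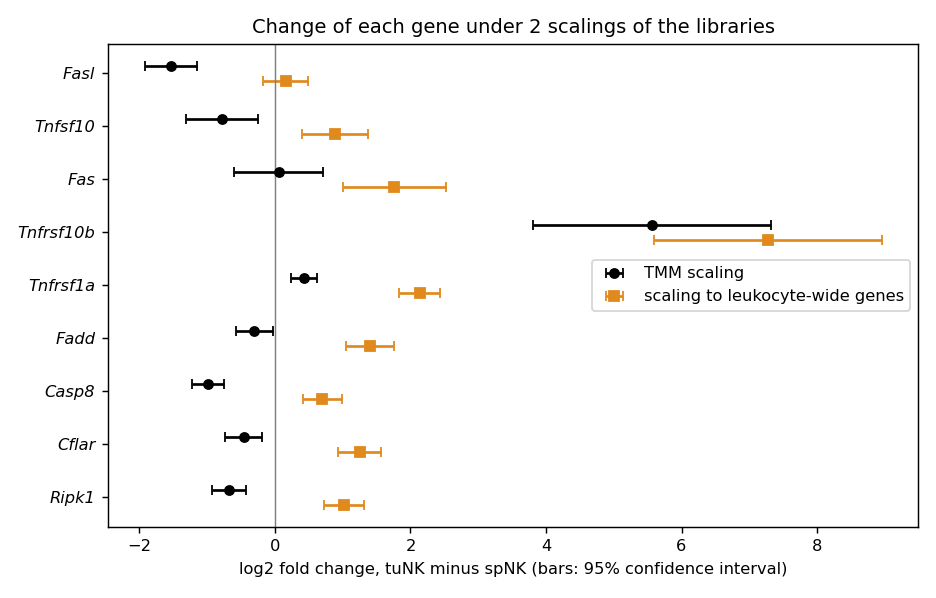
Log2 fold changes, tuNK minus spNK (horizontal axis), of the 9 genes from the edgeR fit with TMM scaling (black circles) and with scaling to the leukocyte-wide genes (orange squares). Bars are 95% confidence intervals. The leukocyte scaling moves all genes to the right by about the same amount, so that Fasl is close to 0 (0.16) and the other 8 lie above it, while the order of the genes stays similar.

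All 4 signalling genes fell in tuNK relative to all RNA, as did 34.0% of all genes tested, Fadd only just past the threshold. Each was higher in tuNK once scaled to leukocyte genes, as were 78.5% of all genes tested. On that scale their changes (0.70 to 1.40) lay below the median of 1.72 over all genes tested. Casp8 (ENSMUSG00000026029, chromosome 1, 58795374 to 58847503, plus strand) encodes the initiator caspase. It had 52.9, 73.7, 67.5 and 70.4 CPM in tuNK 1 to 4, against 130, 139, 125 and 133 CPM in spNK 1 to 4. The groups lay far apart, with tuNK 1 the lowest library. The mean was 66.2 ± 9.17 CPM in tuNK and 132 ± 6.03 CPM in spNK (SD, n = 4 each), a 1.99-fold fall (log2 fold change -0.99 ± 0.11, adjusted p = 1.11e-05; leukocyte-scaled 0.70 ± 0.13, adjusted p = 3.42e-04).

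Cflar (ENSMUSG00000026031, chromosome 1, 58711508 to 58758884, plus strand), the gene of the CASP8 inhibitor cFLIP, lies 36489 bases upstream of Casp8 on the same strand. It had 27.3, 25.1, 24.3 and 28.8 CPM in tuNK 1 to 4, against 36.6, 42.0, 29.9 and 37.2 CPM in spNK 1 to 4. The groups did not overlap, but spNK 3 came close to tuNK 4. The log2 fold change was -0.46 ± 0.12 (adjusted p = 0.00535; leukocyte-scaled 1.25 ± 0.15). On the TPM scale Cflar did not pass the test, at -0.31 to -0.33 with an adjusted p of 0.0783 to 0.111 by limma.

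The balance of the inhibitor and the caspase differed between the groups by TPM. Cflar was 0.399, 0.327, 0.365 and 0.436 times Casp8 in tuNK 1 to 4, against 0.190, 0.239, 0.176 and 0.183 times in spNK 1 to 4. Every tuNK library had the higher ratio, by 1.94-fold on average (log2 difference 0.96, exact permutation p = 0.0286, adjusted p = 0.0347 over 17 ratios). On estimated counts, which are not corrected for length, the log2 difference was smaller, at 0.55, with the same exact permutation p of 0.0286. Both genes are expressed in many cell types, and the part of the mesenchymal RNA in this ratio was not tested.

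Fadd (ENSMUSG00000031077, chromosome 7, 144577318 to 144582463, minus strand) encodes the adaptor that bridges receptor and caspase. It had 22.3, 30.2, 28.1 and 23.9 CPM in tuNK 1 to 4, against 34.6, 34.1, 30.5 and 29.7 CPM in spNK 1 to 4. The groups overlapped, since tuNK 2 lay above spNK 4. The log2 fold change of -0.30 ± 0.12 was just past the threshold (adjusted p = 0.0459), and the call was lost without any one of tuNK 1, tuNK 4, spNK 1 or spNK 2 (-0.27 to -0.25 without a tuNK library, -0.28 to -0.27 without a spNK library; adjusted p = 0.0984 to 0.106). With the DESeq2 test the adjusted p was 0.0502, with its size factors 0.0519 and with the replicate block, which called 33.1% of genes lower, 0.0516, and leukocyte-scaled Fadd was higher by 1.40 ± 0.16. Relative to Casp8, Fadd was higher in every tuNK library, at 0.212, 0.208, 0.202 and 0.169 times Casp8 in tuNK 1 to 4, against 0.131, 0.118, 0.117 and 0.108 times in spNK 1 to 4 (1.66-fold, exact permutation p = 0.0286, adjusted p = 0.0347). As for Cflar and Casp8, the part of the mesenchymal RNA in this ratio was not tested.

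Ripk1 (ENSMUSG00000021408, chromosome 13, 34002363 to 34037147, plus strand) encodes the kinase of the TNF receptor complex. It had 35.2, 34.4, 26.1 and 34.4 CPM in tuNK 1 to 4, against 53.3, 54.9, 46.3 and 53.7 CPM in spNK 1 to 4. The groups did not overlap, and tuNK 3 stood below the other 3 tuNK libraries. The log2 fold change was -0.68 ± 0.11 (adjusted p = 3.3e-04; leukocyte-scaled 1.02 ± 0.14). Serpinb6a, annotated on the opposite strand of the same region, averaged 19272 estimated counts in tuNK and 2075 in spNK, and with the strand setting of the counting not given, the share of its reads in Ripk1 is unknown. The ratio of Ripk1 to Fadd was 1.73, 1.25, 1.02 and 1.61 in tuNK 1 to 4, against 1.68, 1.69, 1.67 and 1.99 in spNK 1 to 4, and did not pass the test (log2 difference -0.35, exact permutation p = 0.114, adjusted p = 0.121).

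**Figure D3:**
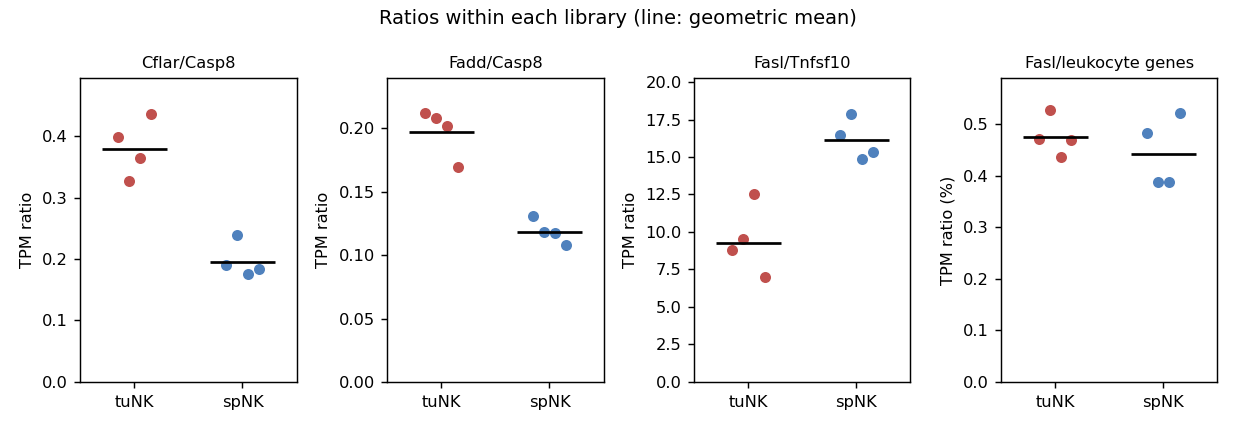
Ratios of TPM plus 0.1 within each library (vertical axes, from 0) for Cflar to Casp8, Fadd to Casp8, Fasl to Tnfsf10, and Fasl to the summed leukocyte-wide genes in percent. Points are the 4 tuNK and the 4 spNK libraries and lines are geometric means. Cflar/Casp8 and Fadd/Casp8 are higher in every tuNK library and Fasl/Tnfsf10 lower, while Fasl per leukocyte RNA overlaps between the groups.

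Relative to leukocyte RNA, Fasl did not pass the test and the other 8 genes were higher in tuNK. Fasl amounted to 0.471, 0.528, 0.436 and 0.469% of the summed TPM of the leukocyte-wide genes in tuNK 1 to 4, against 0.483, 0.388, 0.388 and 0.523% in spNK 1 to 4, with overlapping groups (log2 difference 0.10, exact permutation p = 0.429, adjusted p = 0.429). The other 8 genes were higher relative to that sum in every tuNK library, each with an exact permutation p of 0.0286 and an adjusted p of 0.0347. By the edgeR test on counts, 78.5% of all genes tested were called higher leukocyte-scaled. That is another measure, and no share over all genes was computed for these TPM ratios. The difference was smallest for Casp8, at 0.878% in tuNK and 0.606% in spNK, and larger for Cflar, at 0.333% in tuNK and 0.119% in spNK. For Tnfsf10 the call was lost without the pseudocount of 0.1 TPM (exact permutation p = 0.0571, adjusted p = 0.0727). For Tnfrsf10b, at 0 TPM in spNK 1, the ratio could not be tested without it. Its log2 difference was 6.35 with 0.1 TPM and 3.98 with 1 TPM. Of the 17 ratios, 14 passed the test.

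The order of the genes by TPM differed between the groups, at the top and further down. In tuNK it was Tnfrsf1a (50.5 ± 7.02 TPM), Casp8 (33.6 ± 2.70), Fasl (18.4 ± 3.62), Cflar (12.7 ± 1.37), Ripk1 (9.14 ± 1.80), Fadd (6.57 ± 0.79), Tnfrsf10b (3.96 ± 0.95), Tnfsf10 (1.97 ± 0.69) and Fas (1.81 ± 0.40) TPM (SD, n = 4). In spNK it was Casp8 (81.9 ± 4.03 TPM), Fasl (60.7 ± 12.6), Tnfrsf1a (45.0 ± 5.63), Ripk1 (16.9 ± 1.34), Cflar (16.1 ± 3.08), Fadd (9.62 ± 0.81), Tnfsf10 (3.67 ± 0.79), Fas (2.03 ± 0.26) and Tnfrsf10b (0.0935 ± 0.113) TPM (SD, n = 4). Neighbours whose library values overlapped were Fasl and Cflar, Ripk1 and Fadd, Tnfrsf10b and Tnfsf10, and Tnfsf10 and Fas in tuNK, and Fasl and Tnfrsf1a, and Ripk1 and Cflar in spNK. The ratio of Tnfsf10 to Tnfrsf10b was 0.425, 0.525, 0.420 and 0.647 in tuNK 1 to 4, against 44.1, 9.03, 24.7 and 22.2 in spNK 1 to 4. With 0 to 38 Tnfrsf10b counts in spNK, the pseudocount of 0.1 TPM largely sets these spNK ratios. The log2 difference of -5.44 was -2.83 with a pseudocount of 1 TPM and -7.58 on estimated counts, each with an exact permutation p of 0.0286 (adjusted p = 0.0347).

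The genes whose pattern over the 8 libraries was most like that of Fasl, by the root mean square difference of centred log2 CPM, were Arl4a (0.108), Evi2b (0.11) and Traf3ip3 (0.112). Those most like Fas were Eif3j2 (0.12), Polr1e (0.131) and Cnot10 (0.132). These distances are descriptions over 8 libraries that share the difference between the groups.

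Other ligands of the TNF family fell or did not pass the test relative to all RNA, whereas most were higher leukocyte-scaled. Of 6 listed, 5 were tested, with 3 lower and 0 higher (median log2 fold change -1.05), and leukocyte-scaled 1 was lower and 4 higher (median 0.67). Over all genes tested, 34.0% were lower and 35.6% higher, and leukocyte-scaled 6.25% were lower and 78.5% higher (median 1.72). Tnfsf14, which encodes LIGHT, fell by 2.13 ± 0.15 (adjusted p = 5.73e-07) and was also lower leukocyte-scaled (-0.43, adjusted p = 0.0295). Ltb (lymphotoxin beta) fell by 1.26 ± 0.14 (adjusted p = 1.74e-05) and Tnfsf12 (TWEAK) fell by 1.05 ± 0.13 (adjusted p = 3.54e-05), both higher after leukocyte scaling, by 0.43 and 0.67. Tnf had 1.67 ± 0.38 CPM in tuNK and 2.38 ± 0.61 CPM in spNK (SD, n = 4 each) and did not pass the test by TMM (-0.51, adjusted p = 0.218), but was called higher leukocyte-scaled, by 1.2 (adjusted p = 0.0124).

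Other death and decoy receptors went both ways relative to all RNA. Of 10 listed, 7 were tested, with 3 higher and 4 lower (median -0.60), beside 35.6% higher and 34.0% lower of all genes tested. Leukocyte-scaled 4 were higher and 0 lower (median 1.11), beside 78.5% higher of all genes tested. Tnfrsf22 and Tnfrsf23 encode mouse decoy receptors for TRAIL that lack a death domain, and they lie next to Tnfrsf26 on chromosome 7 (143607659 to 143685872). Tnfrsf23 had 50.8, 54.8, 65.3 and 81.7 CPM in tuNK 1 to 4, against 1.23, 1.1, 0.694 and 0.453 CPM in spNK 1 to 4, a rise of 6.17 ± 0.30 (adjusted p = 6.78e-08; leukocyte-scaled 7.89). Tnfrsf22 had 34.8, 31.5, 26.6 and 36.1 CPM in tuNK 1 to 4, against 3.14, 2.49, 3.86 and 3.22 CPM in spNK 1 to 4, a rise of 3.35 ± 0.17 (adjusted p = 6.5e-08; leukocyte-scaled 5.02). Both decoys were thus higher beside Tnfrsf10b itself, although reads can be split between such close homologues. Their neighbour Tnfrsf26 fell by 1.41 ± 0.20 (adjusted p = 7.56e-05), at 6.77 ± 1.29 CPM in tuNK and 18 ± 3.4 CPM in spNK (leukocyte-scaled 0.28, adjusted p = 0.242). Tnfrsf12a, the receptor of TWEAK, rose by 6.87 ± 0.25 (adjusted p = 1.61e-08; leukocyte-scaled 8.60), to 278 ± 22.4 CPM in tuNK, against 2.37 ± 0.88 CPM in spNK (SD, n = 4 each). The mesenchymal markers rose in the same libraries, and their part was not tested.

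**Figure D4:**
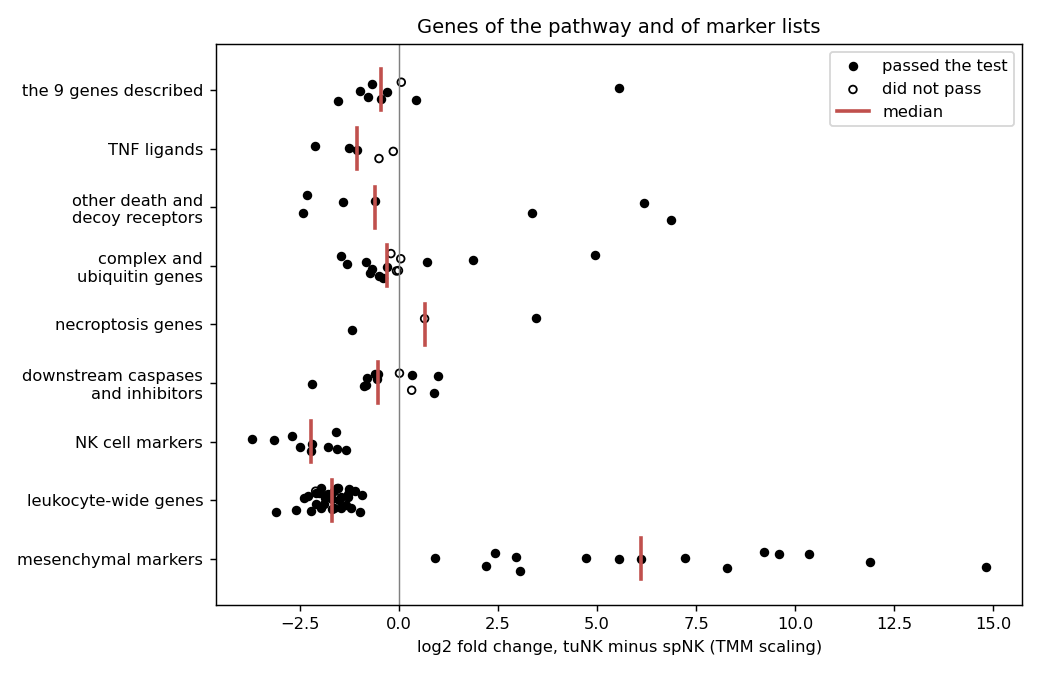
Log2 fold changes, tuNK minus spNK with TMM scaling (horizontal axis), of the tested genes in the 9 described, in 5 further pathway lists and in 3 marker lists. Filled points passed the edgeR test, open points did not, and red lines are medians. The pathway medians lie between -1.05 and 0.65, above the leukocyte-wide median of -1.69 and the NK marker median of -2.21 and below the mesenchymal median of 6.10. With leukocyte scaling the 5 pathway medians are 0.67 to 2.32, beside 1.72 for all genes tested.

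Genes of the receptor complex and its ubiquitin regulators were lower for 8 of 15, higher for 3 and not called for 4 (median -0.31). Leukocyte-scaled 13 were higher and 0 lower (median 1.40). The shares of all genes tested were 34.0% lower and 35.6% higher, and leukocyte-scaled 78.5% higher. Birc2, which encodes the ubiquitin ligase cIAP1, fell by 1.46 ± 0.12 (adjusted p = 1.94e-06; leukocyte-scaled 0.24, not called), Daxx fell by 0.83 ± 0.09 and the deubiquitinase gene Cyld fell by 0.67 ± 0.08 (adjusted p = 1.06e-05 for Daxx and 3.31e-05 for Cyld, both higher leukocyte-scaled, by 0.87 and 1.04). Ptpn13, which encodes a phosphatase, rose by 4.95 ± 0.52 (adjusted p = 1.55e-05; leukocyte-scaled 6.62), at 17.5 ± 4.82 CPM in tuNK and 0.564 ± 0.387 CPM in spNK, beside the mesenchymal markers.

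Of the 3 necroptosis genes 1 was higher, 1 lower and 1 not called (median 0.65), beside 35.6% higher and 34.0% lower of all genes tested. Leukocyte-scaled all 3 were higher (median 2.32), as were 78.5% of all genes tested. Mlkl, the pore-forming effector, had 34.5, 30.7, 27.4 and 32.3 CPM in tuNK 1 to 4, against 3.84, 1.38, 3.57 and 2.56 CPM in spNK 1 to 4, a rise of 3.46 ± 0.28 (adjusted p = 1.74e-06; leukocyte-scaled 5.15). Its kinase Ripk3 fell by 1.2 ± 0.15, with 16.5 ± 3.54 CPM in tuNK and 38.0 ± 3.79 CPM in spNK (adjusted p = 4.3e-05), but was higher by 0.47 after leukocyte scaling. Zbp1, a nucleic acid sensor, did not pass the test (54.5 ± 22.7 CPM in tuNK, 34.8 ± 2.99 CPM in spNK, adjusted p = 0.0721) by TMM, but was called higher leukocyte-scaled, by 2.32 (adjusted p = 1.65e-05).

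Downstream caspases, mitochondrial partners and inhibitors were lower for 7 of 12 and higher for 3 (median -0.53), beside 34.0% lower and 35.6% higher of all genes tested. Leukocyte-scaled 11 were higher and 1 lower (median 1.19), beside 78.5% higher and 6.25% lower of all genes tested. Dffb, the nuclease that cuts DNA in apoptosis, fell by 2.19 ± 0.17 (adjusted p = 1.03e-06) and was the 1 gene of this list that was lower leukocyte-scaled (-0.49). Cycs (cytochrome c) rose by 1.00 ± 0.10 (adjusted p = 4.83e-06; leukocyte-scaled 2.70), with 233 ± 18.4 CPM in tuNK and 117 ± 12 CPM in spNK. Apaf1, the scaffold that activates the mitochondrial caspase, fell by 0.83 ± 0.12 (adjusted p = 1.06e-04), and Xiap, a caspase inhibitor, fell by 0.59 ± 0.09 (adjusted p = 1.79e-04), both higher leukocyte-scaled, by 0.86 and 1.11.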

How the data were processed

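Per the submitters' processing notes, the tools were FastQC 0.11.9, STAR and Salmon and the build GRCm38 (mm10). The sources used here give no other versions, annotation or strand setting. Per the labels, libraries were directional and made from polyadenylated RNA. The authors deposited estimated counts per gene (expected counts, not normalised) and TPM (scaled by length and library). Columns were matched to samples by title, and 0 were left over.

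Estimated counts were rounded. Genes were kept by filterByExpr by group, scaled with TMM and tested with the edgeR 4.0.16 quasi-likelihood test (robust) in R 4.3.3, with Benjamini-Hochberg adjustment over 14006 genes and a threshold of 0.05. The standard error is the log2 fold change over the root of its F statistic. The edgeR procedure was run on simulated counts with a common dispersion, in which few genes were changed, equally up and down. That run did not probe TMM scaling where most genes differ. Ratios used TPM plus 0.1 and a two-sided exact permutation test over 70 assignments. The 17 ratios, the pathway and marker lists and the 9 genes were chosen with earlier results of these data known. All 9 genes were named, for each pathway list up to 4 with the smallest adjusted p, and for Fasl and Fas the 3 genes most alike, leaving out predicted genes and pseudogenes. Other scalings, filters, DESeq2 1.42.0, limma 3.58.1, a replicate block and left-out libraries were alternatives. Positions are from GENCODE M21 on GRCm38. No libraries held identical counts.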

Additional observations from a re-analysis of the deposited data

Results flagged for a closer look

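Of 52 groups of 4 libraries checked, 2 held a library far from the other 3, and chance flags about 1 in 20 such groups. Ripk1 was at 26.1 CPM in tuNK 3, against 34.4 to 35.2 CPM in the other tuNK libraries, and without tuNK 3 its log2 fold change was -0.60 (adjusted p = 3.84e-04 by edgeR). The log2 ratio of Ripk1 to Fadd was 0.996 in spNK 4, against 0.738 to 0.755 in the other spNK libraries.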

How the results depend on the processing

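Fasl, Tnfsf10, Tnfrsf10b, Casp8 and Ripk1 kept their direction and call in all 20 alternatives other than leukocyte scaling, including those without 1 library. Under leukocyte scaling 10997 genes were called higher and 876 lower, against 4983 and 4761 by TMM, and 8 of the 9 genes were higher and 0 lower. Fasl (0.16), Tnfsf10 (0.89), Fadd (1.40), Casp8 (0.70), Cflar (1.25) and Ripk1 (1.02) changed sign there, as its construction shifts all genes. On the 3 TPM scales 1 of the 9 genes was called higher, since Tnfrsf1a was not called. The sign of Fas turned with library totals (-0.11), on log2 TPM plus 1 (-0.12, also over all genes above 0), on log2 TPM plus 0.1 (-0.18), without spNK 2 (-0.02) and without tuNK 2 (-0.031), with a range of -0.031 to 0.17 without 1 library, and it was not called in these. Scaling by library totals moved the median gene by -0.17. Of the 14 ratios called, 0 were called without 1 library (0 to 0) and 0 with the replicate block, where the smallest p is 0.0571 and 0.125, so these say nothing about stability. With the replicate block 9555 genes and 2 higher and 5 lower of the 9 were called, Fadd being lost. Correlations of deviations were -0.00864 to 0.0472 for same-numbered tuNK and spNK libraries and -0.0767 to 0.0420 for differently numbered ones. Such small values over so few libraries cannot show whether replicate numbers pair the libraries. Depth limits Fas (71 to 122 counts in each library) and Tnfrsf10b in spNK (0 to 38 counts).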

Other observations

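Tnfaip3, which encodes the ubiquitin-editing enzyme A20, was chosen after its values were seen. It had 272, 170, 65.1 and 100 CPM in tuNK 1 to 4, against 45.4, 50.3, 32.6 and 38.3 CPM in spNK 1 to 4. The rise of 1.87 ± 0.41 passed the edgeR test (adjusted p = 0.00347; leukocyte-scaled 3.59, adjusted p = 2.08e-05).

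The mean transcript length that count and TPM imply for Cflar, relative to the median of 11223 genes in the same library, was 1.11, 0.906, 0.828 and 0.803 in tuNK 1 to 4, against 1.25, 1.01, 1.13 and 1.27 in spNK 1 to 4. Cflar has 13 annotated transcripts in GENCODE M21. The groups overlapped, the log2 difference was -0.36, and 2.69% of those genes had a difference as low or lower. For Casp8 the same difference was 0.05. Cflar was picked after its counts and TPM had given different changes, so this is a description with no test.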
